A study of Mus musculus with 10 samples.

Results

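The data described here are 2 genome-wide lists of H3K27me3-enriched regions (islands) in MC3T3 cells, a mouse calvarial pre-osteoblast line, 24 hours after the first dose of the Ezh2 inhibitor GSK126 or of vehicle. Every island on the 19 autosomes was kept, with no choice by level, which gave 59298 of the 59445 islands in the lists. Of these, 34384 came from the vehicle ChIP and 24914 from the GSK126 ChIP. All cells were in osteogenic medium, which contained beta glycerol phosphate and ascorbic acid, and received vehicle (DMSO) or 5 µM GSK126. Each treatment had 1 H3K27me3 ChIP library and 1 input library, so 4 of the 10 samples of the study belong to the ChIP experiment. The other samples are 6 RNA libraries, 1 per treatment on each of days 3, 6 and 10, with the drug taken away on day 6. Nothing in the labels says whether libraries came from separate cultures. With 1 ChIP library a side, no difference between the island lists could be tested, and every ChIP value below is a description of these libraries.

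H3K27me3 is the trimethyl mark placed by Ezh2, the methyltransferase of Polycomb repressive complex 2 (PRC2), on lysine 27 of histone H3, and it is found over silent genes, among them developmental regulators outside their lineage. GSK126 competes with the methyl donor of Ezh2, so the mark is no longer renewed on newly deposited histones, while the histones that already carry it are diluted by cell division or cleared by demethylases. In osteoblast precursors, Ezh2 activity is known to restrain bone-forming genes.

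The windows printed here show what the sequence around a gene start looked like inside or beside the islands. Each runs from 250 bases before to 50 bases after a RefSeq start on GRCm38.p6 (mm10), on the strand of the gene, in lower case with each CG dinucleotide in capitals. The first pair are starts of silent developmental genes inside islands of both lists: Wnt7a (a Wnt ligand, chr6:91411304-91411603, minus strand, 42 CG) and Pax2 (a kidney and eye transcription factor, chr19:44756656-44756955, plus strand, 30 CG). Cidec (a fat droplet protein, chr6:113435711-113436010, minus strand, 6 CG) and Tspan12 (a tetraspanin of the Norrin receptor complex, chr6:21852484-21852783, minus strand, 7 CG) also started inside islands of both lists but hold few CG. Enpp1 (the pyrophosphate-producing ectoenzyme of mineralising cells, chr10:24712110-24712409, minus strand, 22 CG) started in a vehicle island only, and the start of Wif1 (a secreted Wnt antagonist, chr10:121033754-121034053, plus strand, 25 CG) lay just outside an island in both lists.
Wnt7a: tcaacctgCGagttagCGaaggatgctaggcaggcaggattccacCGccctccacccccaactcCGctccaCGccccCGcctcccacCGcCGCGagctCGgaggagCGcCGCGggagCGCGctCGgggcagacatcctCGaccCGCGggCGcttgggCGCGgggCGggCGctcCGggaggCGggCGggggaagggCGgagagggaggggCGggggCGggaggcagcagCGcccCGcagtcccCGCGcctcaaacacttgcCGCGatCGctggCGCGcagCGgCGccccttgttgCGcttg
Pax2: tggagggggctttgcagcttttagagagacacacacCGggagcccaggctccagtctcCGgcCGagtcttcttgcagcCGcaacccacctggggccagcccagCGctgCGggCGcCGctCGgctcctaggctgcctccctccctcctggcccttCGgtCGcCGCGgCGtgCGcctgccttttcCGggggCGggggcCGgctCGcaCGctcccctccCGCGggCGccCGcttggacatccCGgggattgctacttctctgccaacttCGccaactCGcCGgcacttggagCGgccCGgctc
Cidec: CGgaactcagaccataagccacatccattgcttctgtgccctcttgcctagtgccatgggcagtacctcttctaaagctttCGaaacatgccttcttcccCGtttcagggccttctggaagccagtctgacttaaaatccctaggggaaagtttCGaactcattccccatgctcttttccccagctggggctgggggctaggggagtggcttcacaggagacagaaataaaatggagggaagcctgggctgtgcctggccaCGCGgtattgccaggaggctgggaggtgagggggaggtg
Tspan12: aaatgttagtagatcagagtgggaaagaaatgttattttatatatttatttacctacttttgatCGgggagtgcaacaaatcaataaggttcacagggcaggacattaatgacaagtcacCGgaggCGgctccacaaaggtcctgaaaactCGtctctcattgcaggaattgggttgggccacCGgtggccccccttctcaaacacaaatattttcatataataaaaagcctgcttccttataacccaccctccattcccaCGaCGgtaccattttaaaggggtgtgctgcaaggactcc
Enpp1: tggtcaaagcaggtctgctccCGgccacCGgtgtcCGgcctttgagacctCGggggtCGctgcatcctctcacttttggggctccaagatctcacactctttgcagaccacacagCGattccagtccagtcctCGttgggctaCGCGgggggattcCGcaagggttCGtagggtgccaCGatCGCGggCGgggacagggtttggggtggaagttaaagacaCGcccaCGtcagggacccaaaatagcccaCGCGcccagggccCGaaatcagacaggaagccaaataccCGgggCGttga
Wif1: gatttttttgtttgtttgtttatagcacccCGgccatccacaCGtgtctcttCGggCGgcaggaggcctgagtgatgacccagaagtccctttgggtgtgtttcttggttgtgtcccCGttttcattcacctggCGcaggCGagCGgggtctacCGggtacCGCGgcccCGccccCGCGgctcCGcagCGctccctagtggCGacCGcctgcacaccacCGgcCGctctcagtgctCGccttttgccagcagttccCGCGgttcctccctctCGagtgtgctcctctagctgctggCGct
Among all 31396 autosomal RefSeq windows of the same length, 94.8% held at least 1 CG, 27% held 20 or more and 4.05% held 40 or more. The Wnt7a window is in that last group, while the Cidec window is close to the median of 7. A CG count is a description of the window and not a site.

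The Wnt7a start lay in a vehicle island of 16.4 kb at a ratio of 2.76 and in a GSK126 island of 25.8 kb at 2.19. The ratio is ChIP reads over input reads times 1 constant per list, on the fold scale that the authors deposited. At the Pax2 start, the island was 17.4 kb at 2.88 with vehicle and 20.2 kb at 2.90 with GSK126. The Cidec start gave 1.93 and 1.74. The Tspan12 start sat in an island of 27.8 kb with vehicle and 28 kb with GSK126, which held 445 and 446 ChIP reads over 269 and 400 input reads, a ratio of 2.78 against 1.85. Its ChIP reads were almost equal and its input reads were not. The Enpp1 start was inside a vehicle island of 3.8 kb at 2.28, and the nearest GSK126 island was 28559 bases away. The Wif1 start was 397 bases from a vehicle island and 597 bases from a GSK126 island.

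The islands held 2101133 ChIP and 1490063 input reads with vehicle, and 2526809 ChIP and 2132813 input reads with GSK126. These are reads inside islands, and the total of each library was not used here, so depth per library is unknown. The constants solved from the lists were 1.68 for vehicle and 1.66 for GSK126. No added reference chromatin is named in the sources used here, so each list was scaled on its own and a level set across lists does not give the amount of mark per cell. In the 3 vehicle RNA libraries, 21 of 25 autosomal osteoblast genes averaged 1 RPKM or more, with Col1a1 at 4965 RPKM. All 8 endothelial and all 9 epithelial markers were below 1 RPKM, as were 8 of 9 blood cell markers (Cd34 was the exception). The labelled cell type was thus present by its own markers.

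With GSK126 there were fewer and longer islands. The GSK126 list had 72.5% as many islands as the vehicle list and covered 167 Mb against 148 Mb, or 113% of the vehicle length. The median island was 3.4 kb with vehicle (middle 50% of islands, 2.55 to 5.0 kb) and 5.6 kb with GSK126 (4.2 to 7.6 kb). The vehicle list had 3213 islands of 1 to 2 kb, where the GSK126 list had 80. Between 2 and 5 kb the numbers were 22356 and 9319. From 5 to 10 kb the order was the other way round, with 7018 vehicle and 12120 GSK126 islands. Islands of 10 to 20 kb numbered 1509 and 2972, and those of 20 kb or more 200 and 415. The smallest gap between neighbouring islands was 800 bases in both lists.

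ChIP over input was lower with GSK126. The ratio of summed reads was 2.37 with vehicle (95% exact interval 2.36 to 2.37) and 1.97 with GSK126 (1.97 to 1.97), and these intervals cover counting error only. The median over islands was 2.48 (middle 50%, 2.05 to 3.05) with vehicle and 2.04 (1.76 to 2.38) with GSK126. A ratio of 2 or more was reached by 78.1% of vehicle and 53.7% of GSK126 islands, and a ratio of 4 or more by 3035 vehicle islands (8.83%) and 178 GSK126 islands (0.714%). ChIP reads per kb were not lower: summed over islands they were 14.2 with vehicle and 15.2 with GSK126. Input reads per kb were 10.1 with vehicle and 12.8 with GSK126, so the input under the islands moved further than the ChIP. Once input scaled by the constant was taken from the ChIP reads, the GSK126 density was 90.8% of the vehicle density, against 106% before. The part of library depth in these differences was not tested.

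**Figure D1:**
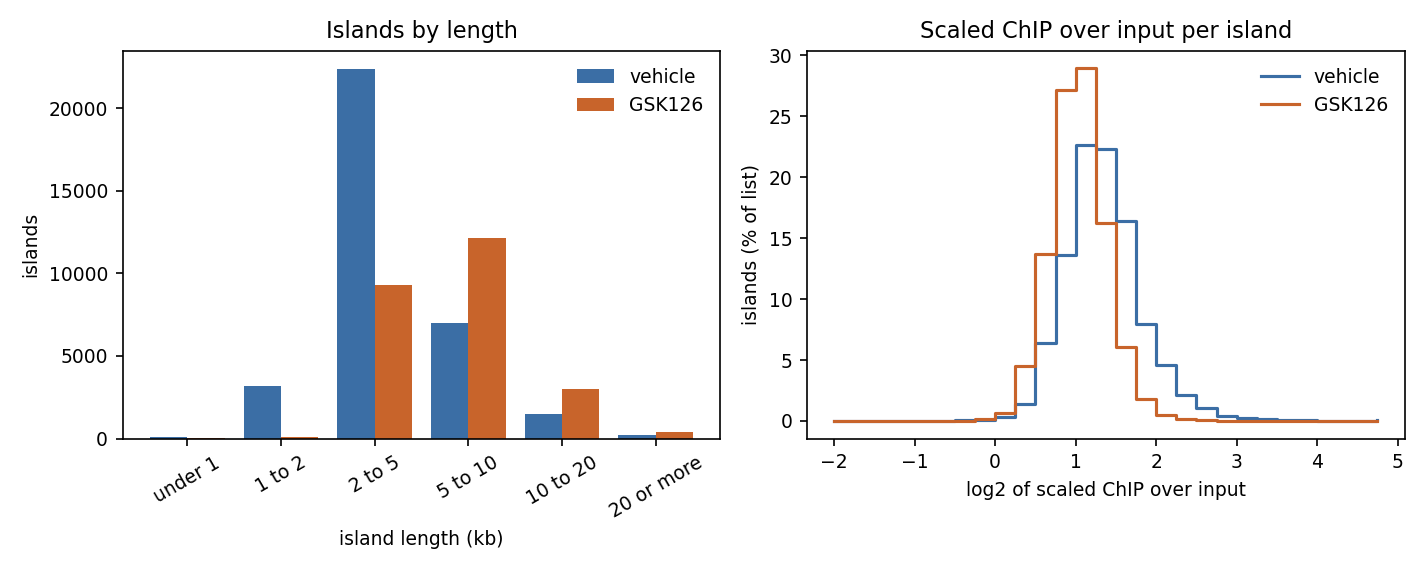
Left, number of autosomal islands by length in kb for the vehicle and GSK126 lists; right, distribution of the deposited ratio of ChIP over input per island. GSK126 islands are shifted to greater length (median 5.6 against 3.4 kb) and to lower ratios (median 2.04 against 2.48), with 1 ChIP and 1 input library behind each curve.

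Density did not rise steadily with length. In the vehicle list, median ChIP reads per kb were 26.2 in the 88 islands under 1 kb, 16.7 at 1 to 2 kb, 13.1 at 2 to 5 kb, 13.5 at 5 to 10 kb, 15.1 at 10 to 20 kb and 16.8 in islands of 20 kb or more. The GSK126 list went from 24.4 at 1 to 2 kb to 15.0, 13.7, 15.0 and 16.8 over the same bins, and only 8 of its islands were under 1 kb. Among listed islands, short ones were therefore dense, those of 2 to 10 kb were the least dense, and density was higher again in the longest ones in both lists. Listed islands are those the caller accepted, and a short stretch needs more reads per kb to be accepted. The part of calling in the density and ratio of short islands was not tested. Median input reads per kb went up with length from 2 kb, from 9.06 to 11.3 with vehicle and from 11.75 to 13.5 with GSK126. The median ratio with vehicle was 3.05 at 1 to 2 kb, 2.45 at 2 to 5 kb, 2.38 at 5 to 10 kb, 2.47 at 10 to 20 kb and 2.51 above that. With GSK126 it was 2.98, 2.16, 1.97, 2.01 and 2.08. Each of the 5 bins from 1 kb upwards had the lower ratio with GSK126.

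The longest island in both lists lay at chr11:3126801-3200000 with vehicle (73.2 kb, over Sfi1 and Pisd-ps1) and was 74.8 kb long with GSK126. It held more input than ChIP reads, 16928 against 8267 with vehicle and 18779 against 11294 with GSK126, for ratios of 0.82 and 1.00. Islands with 1000 or more input reads numbered 11 with vehicle and 14 with GSK126 and carried 4.54% and 3.79% of all input reads. Without them the ratio of summed reads was 2.43 and 1.99. Next in length with vehicle were islands over Cecr2, a chromatin remodelling factor (68.6 kb, ratio 2.79), near Rbm34 (54.4 kb, 2.05), over Hoxb13 and Ttll6 (49.2 kb, 3.40) and over the Ugt1a cluster of glucuronosyltransferases (48.4 kb, 1.15). With GSK126 they were near Ccnj (71.4 kb, 2.24), over Gm765 (70.2 kb, 2.30), over Prok2 (60.4 kb, 2.05) and over the calcium channel subunit gene Cacna2d4 (58.8 kb, 2.25). The 4 vehicle islands ran from 1.15 to 3.40, and the 4 GSK126 islands from 2.05 to 2.30.

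Among islands of 2 kb or more with at least 50 ChIP reads, the highest ratio with vehicle was 13.9 (58 ChIP and 7 input reads, exact interval 6.34 to 36.2), 596 kb from Api5. The next were near Thrb (13.0), near 4930413F20Rik (12.7), over A630010A05Rik (11.4) and over Zfp758 (10.7). With GSK126 the highest was 6.88 over the potassium channel gene Kcnc4 (62 ChIP and 15 input reads, 3.87 to 13.0), followed by Nptx1, a neuronal pentraxin (6.56), the imprinted RNA Meg3 (6.10), Tdh (5.94) and an island near 1700092C10Rik (5.87). Input counts were between 7 and 15 in these vehicle islands and between 14 and 21 in these GSK126 islands.

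Island number was very uneven across chromosomes. With vehicle it ran from 3.00 islands per Mb on chromosome 14 to 32.6 on chromosome 19, and with GSK126 from 1.44 to 27.5 on the same chromosomes. Chromosomes with more input under their islands had more islands. Median input reads per kb with vehicle were 6.25 on chromosome 14, 11.1 on chromosome 6 and 11.5 on chromosome 19. Across the 19 chromosomes, islands per Mb and median input reads per kb gave Pearson r = 0.958 and Spearman rho = 0.968 with vehicle, and 0.907 for both with GSK126. The points of each list share 1 ChIP and 1 input library, so these are descriptions. The part of the input level in the island number was not tested.

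**Figure D2:**
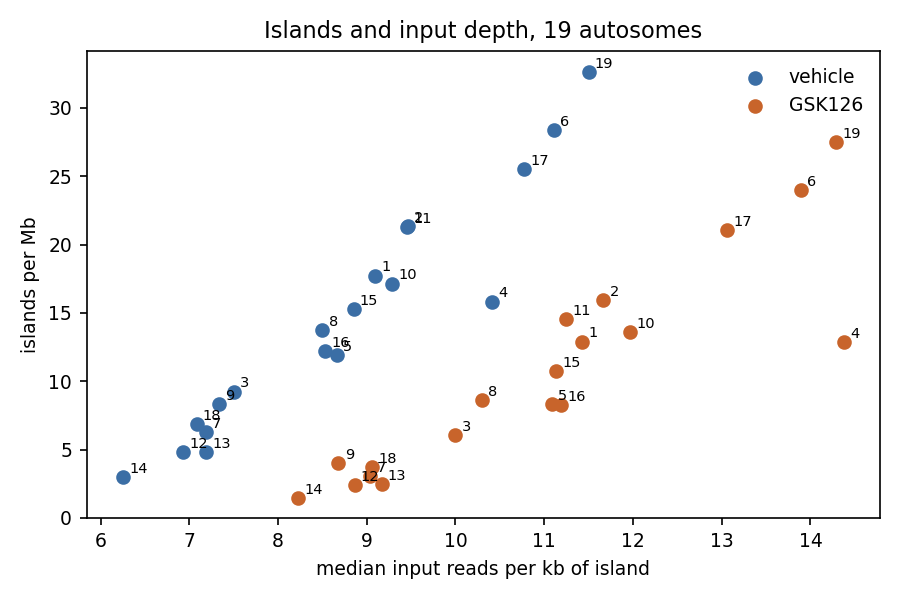
Islands per Mb (vertical axis) against the median number of input reads per kb of island (horizontal axis), 1 point per autosome, labelled with the chromosome, for each list. Chromosome 14 is lowest (3.00 and 1.44 islands per Mb) and chromosome 19 is highest (32.6 and 27.5).

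All 19 autosomes had fewer islands, a longer median island, a lower median ratio and more input reads per kb with GSK126. The size of the difference in number followed the same gradient. Chromosome 6 had 4155 vehicle and 3505 GSK126 islands (84.4%) and chromosome 19 had 1895 and 1598 (84.3%), while chromosome 14 had 365 and 175 (47.9%) and chromosome 9 had 1009 and 484 (48.0%). GSK126 islands as a percentage of vehicle islands and vehicle input reads per kb gave r = 0.945 and rho = 0.948 over the 19 chromosomes. Without chromosomes 6 and 19 the GSK126 list had 69.9% as many islands as the vehicle list.

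Of the vehicle islands, 20805 of 34384 (60.5%, exact interval 60.0 to 61.0%) were overlapped by a GSK126 island by at least 1 base, and 17160 of 24914 GSK126 islands (68.9%, 68.3 to 69.5%) were overlapped by a vehicle island. The shared 82.2 Mb was 55.7% of the vehicle length and 49.4% of the GSK126 length. Counted at 1 base, which favours long islands, overlap with vehicle was 51.2% at 1 to 2 kb, 52.6% at 2 to 5 kb, 80.9% at 5 to 10 kb, 97.3% at 10 to 20 kb and 100% in the 200 islands of 20 kb or more. With GSK126 the shares were 65.0%, 59.1%, 69.2%, 93.9% and 99.8%. By bases, 43.0% of the vehicle length at 2 to 5 kb and 89.9% at 20 kb or more was shared, and 39.7% and 80.1% of the GSK126 length, so the share was higher in long islands on this scale too. The 13579 islands of the vehicle list alone (39.5%) had a median length of 3.0 kb and a median ratio of 2.52, and the 7754 of the GSK126 list alone (31.1%) had 5.0 kb and 1.95. The vehicle islands without a GSK126 partner were not those of lowest ratio, since their median was above that of the 1-to-1 pairs (2.47). Their median ChIP density was lower, at 12.8 reads per kb against 13.6, and so was their median input density, at 8.67 against 9.31. They were also shorter than the vehicle islands of the 1-to-1 pairs (median 3.8 kb).

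Where lists overlapped, several vehicle islands often lay in 1 GSK126 island. There were 9786 groups of 1 island in each list. In 2913 groups, 6476 vehicle islands lay in 1 GSK126 island each, in 591 groups 1 vehicle island held 1212 GSK126 islands, and in 1386 groups several islands of both lists chained together (3952 vehicle and 3249 GSK126). Counted by island, 4891 overlapped GSK126 islands (28.5%) lay over 2 or more vehicle islands, and 2283 overlapped vehicle islands (11%) lay over 2 or more GSK126 islands. In the 2913 groups of the merging kind, 3563 gaps between vehicle islands were bridged. The median bridged gap was 1 kb, the smallest 0.8 kb and the largest 12.2 kb, and 73.7% were under 2 kb. Together the bridged gaps came to 5.94 Mb. Joining islands within 2 kb of each other in both lists first left 24828 vehicle and 19177 GSK126 islands (77.2%), and median lengths of 3.8 and 6.0 kb, so most of the difference in number and length remained after that step.

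**Figure D3:**
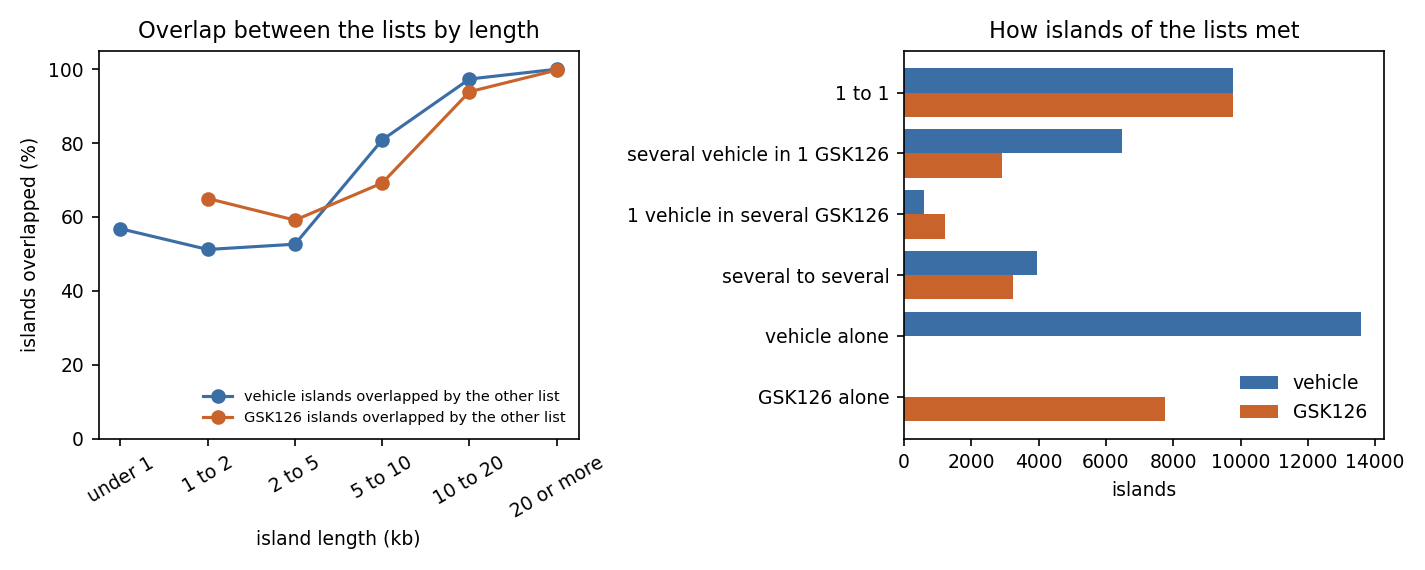
Left, percentage of islands overlapped by the other list in each length bin with 50 or more islands; right, number of islands of each list by kind of overlap group. Overlap climbs to 100% and 99.8% in islands of 20 kb or more, and several vehicle islands in 1 GSK126 island (2913 groups) outnumber the converse (591 groups).

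The broadest merging was over Zfp286, a zinc-finger gene, at chr11:62763401-62810200. Here 8 vehicle islands with 31.2 kb lay in 1 GSK126 island of 44.2 kb, at a ratio of 2.84 with vehicle and 2.31 with GSK126. A second group of 8 in 1 lay on chromosome 6 near 4930511E03Rik (2.34 and 1.85), and groups of 6 in 1 lay near Snx10 (2.08 and 1.97) and over Hemgn, a gene of blood precursors (2.11 and 1.82). The converse was seen over Cecr2, where the 68.6 kb vehicle island lay over 4 GSK126 islands (ratio 2.79 and 2.03). The steroid hydroxylase gene Cyp17a1 also had 4 GSK126 islands in 1 vehicle island (2.13 and 2.0). An island 7.66 kb from Col1a2, a chain of the main bone collagen, was 1 with vehicle and 3 with GSK126 (2.90 and 2.15).

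Groups with exactly 1 island in each list allow the same place to be compared. In 9785 of them with input reads on both sides, the median ratio was 2.47 with vehicle and 2.07 with GSK126, and the log2 quotient of GSK126 over vehicle had a median of -0.25 (middle 50%, -0.57 to 0.04). The ratio was lower with GSK126 in 7010 pairs (71.6%). It was lower by 1.5-fold or more in 2377 pairs (24.3%) and higher by as much in 309 (3.16%). The islands of a pair differ in width (median 3.8 and 5.4 kb), so 1584 pairs were taken in which the overlap was 80% or more of both islands, with medians of 5.4 kb on both sides. There the median log2 quotient was -0.21, and the ratio was lower in 1115 pairs (70.4%), lower by 1.5-fold or more in 269 (17%) and higher by as much in 43 (2.71%). In these matched pairs the median quotient of ChIP reads was 1.12 and that of input reads 1.27. The lower ratio at matched places therefore went with more reads in both libraries, and with a greater difference in input. The 47 pairs with the same start and end had a median log2 quotient of -0.09, with 27 lower.

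The lowest quotient among pairs with at least 50 ChIP reads on both sides was over Rims2, a synaptic release gene, at chr15:39343601-39347600. Its island had 72 ChIP and 15 input reads with vehicle (ratio 8.06, exact interval 4.58 to 15.2) and 60 and 63 reads with GSK126 (1.58, 1.09 to 2.29). The next were beside the homeobox gene Nkx2-4 (8.51 and 1.68), over Gm10754 (8.87 and 1.81), near Ubxn2b (8.96 and 1.93), 58.1 kb from the forkhead factor gene Foxo1 (9.71 and 2.15) and near Tram1 (9.07 and 2.13). All 6 vehicle islands had between 9 and 18 input reads and all 6 GSK126 islands between 63 and 93. At the other end, the ratio over the neuropeptide receptor gene Npffr1 was 1.75 with vehicle and 3.67 with GSK126. Tacr1, the substance P receptor, had 1.15 and 2.36, and the glycerol channel gene Aqp3 had 1.20 and 2.36. The others at this end lay near Iyd, Dock1 and T, with log2 quotients of 0.96.

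Gene spans of the count table covered 940 Mb, or 39.2% of the length from the first to the last gene of each autosome. On these spans, 12043 vehicle islands (35.0%, exact interval 34.5 to 35.5%) and 8404 GSK126 islands (33.7%, 33.1 to 34.3%) overlapped a gene by at least 1 base. A gene start lay inside 1893 vehicle (5.51%) and 1732 GSK126 islands (6.95%). Islands that held a start were longer, with medians of 4.8 kb with vehicle and 7.4 kb with GSK126. Their median ratios were 2.42 and 2.07, close to those of all islands. A share of 66.3% of the vehicle islands at starts and 83.0% of the GSK126 islands at starts was overlapped by the other list, against 60.5% and 68.9% over all islands. The share of islands with a start went up with length from 3.98% at 2 to 5 kb to 34.0% at 20 kb or more with vehicle, and from 3.90% to 31.8% with GSK126.

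Counted by gene, 3926 of 22242 autosomal genes (17.7%) had a vehicle island on the span and 3406 (15.3%) a GSK126 island. Both lists marked 2797 genes, vehicle alone 1129, GSK126 alone 609 and neither 17707. Of 14821 genes with a RefSeq start, 1039 (7.01%) started in a vehicle island and 936 (6.32%) in a GSK126 island, 545 of them in both. In the 2797 genes with islands in both lists, the median log2 quotient of the gene's ratio was -0.20, and 76.3% were lower with GSK126. The starts in islands were poorer in CG than starts in general. The median count per 300-base window was 14 over all starts, 6 for starts in vehicle islands and 5 for starts in GSK126 islands, and windows with 20 or more CG made up 37.8%, 19.6% and 19.2%. Genes below 1 RPKM had a median of 4 CG and 16.1% with 20 or more, so the starts in islands resembled starts of weakly transcribed genes more than the average start.

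CG-rich starts below 1 RPKM lay in islands somewhat more often than CG-poor ones, in both lists. Of all starts below 1 RPKM, 16.1% were CG-rich, beside 19.1% of those in vehicle islands and 18.2% of those in GSK126 islands. Among genes above 0 and below 1 RPKM, 16.2% of CG-rich starts (13.9 to 18.7%) and 13.5% of CG-poor starts (12.3 to 14.7%) lay in vehicle islands, and these intervals overlap. With GSK126 the shares were 12.8% and 11.9%. Among genes at 0 RPKM, the vehicle shares were 14.6% of CG-rich and 12.3% of CG-poor starts. The GSK126 shares there were further apart, at 16.5% (12.2 to 21.5%) and 11.8% (10.7 to 13.0%), with intervals that still overlap. Overlap of these intervals does not show that the shares are equal, and the difference was not tested. Over all genes below 1 RPKM, those at 0 included, whose start lay in islands of both lists, the median log2 quotient of the gene's ratio was -0.11 over 97 CG-rich starts and -0.22 over 429 CG-poor ones. The Wnt7a and Pax2 windows above belong to the first kind and the Tspan12 window to the second.

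Islands lay over genes with little or no RNA. Expression class was set by the mean RPKM of the 3 vehicle RNA libraries, which are from days 3 to 10 and so later than the ChIP. A vehicle island lay on 25.4% of the 5330 genes at 0 in all 3 libraries (exact interval 24.3 to 26.6%), 36.0% of the 6464 genes below 1 RPKM (34.8 to 37.2%), 3.8% of the 5419 genes from 1 to 10 RPKM (3.31 to 4.35%) and 0.795% of the 5029 genes at 10 RPKM or more (0.569 to 1.08%). With GSK126 the shares were 23.1%, 29.7%, 3.86% and 0.935%. The class below 1 RPKM had the highest share in both lists over all spans. The 2 lower classes had smaller shares with GSK126, by more than the counting intervals in the class below 1 RPKM (28.6 to 30.8% with GSK126), while the 2 upper classes had about the same share.

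**Figure D4:**
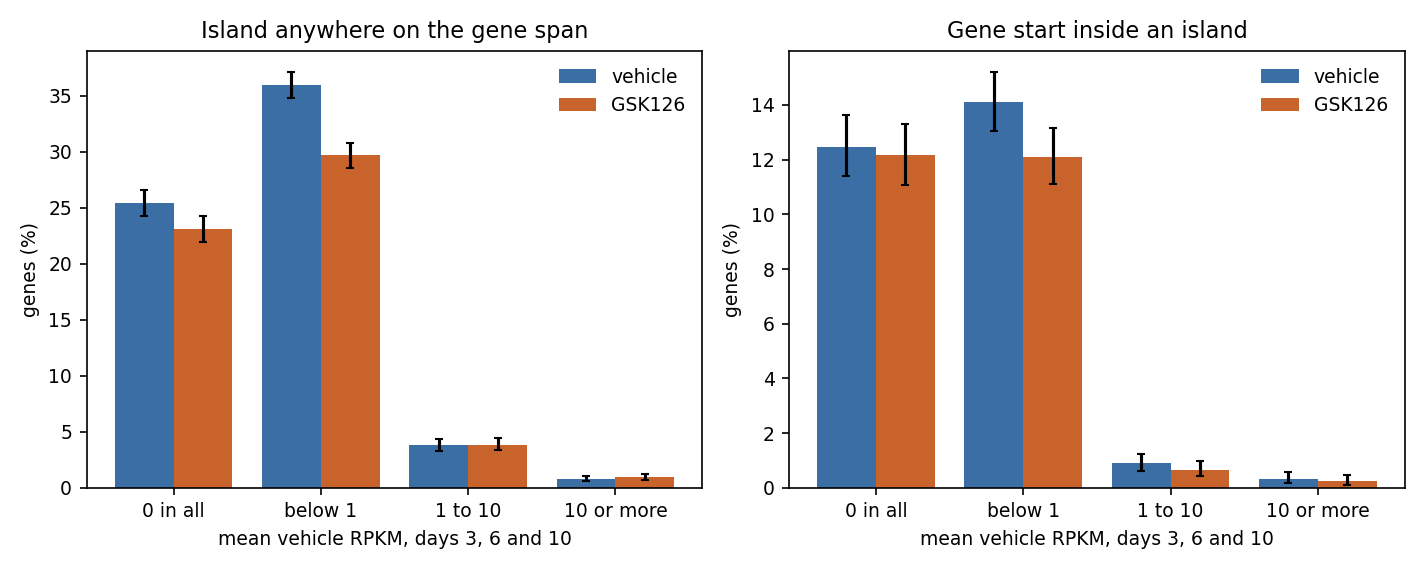
Percentage of autosomal genes with an island on the span (left) and with the start in an island (right), by mean RPKM of the 3 vehicle RNA libraries; bars are vehicle and GSK126 lists and error bars are exact 95% intervals that cover counting error only. Shares on the span run from 36.0% and 29.7% below 1 RPKM to 0.795% and 0.935% at 10 RPKM or more.

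The classes differ in gene length, with median spans of 4.86, 14.2, 23.9 and 19.5 kb from the lowest class up. Within spans of 50 to 100 kb, 61.1% of genes below 1 RPKM and 1.37% of genes at 10 RPKM or more had a vehicle island. The order of the 2 lower classes depended on span: under 10 kb, 16.3% of the genes at 0 and of those below 1 RPKM had a vehicle island, while a GSK126 island lay on 14.4% and 12.0%, and from 10 to 50 kb on 36.4% and 32.4%. Starts, which do not depend on span, gave 12.5%, 14.1%, 0.895% and 0.325% with vehicle and 12.2%, 12.1%, 0.651% and 0.244% with GSK126. The islands themselves differed little in ratio between classes, with medians of 2.45 with vehicle and 2.06 with GSK126 below 1 RPKM and 2.29 and 1.98 at 10 RPKM or more. The ratio of summed reads in that top class was 1.03 and 1.14, and 2.14 and 1.91 without the 2 islands of 1000 or more input reads that each list held there. Of the genes with a vehicle island, a GSK126 island was also present in 70.3%, 71.9%, 68.4% and 77.5% of the 4 classes, the last of 40 genes. Bases in islands per kb of span were 107 and 111 in the class below 1 RPKM, 39.1 and 43.2 in the class at 0, and 2.44 and 2.32 in the top class.

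Genes were then read by their roles, on lists set against the shares over all genes (17.7% with vehicle, 15.3% with GSK126). Transcription factors of development, which fix lineage identity, had a vehicle island in 40 of 106 and a GSK126 island in 33, with 26 in both. Of the 106, 82 were below 1 RPKM, where 31.2% of all genes had a vehicle island and 26.7% a GSK126 island. In the 26 with islands in both lists, the median log2 quotient was -0.07, with 18 lower, beside -0.20 over all genes. Pax5, the B cell factor, had 17 islands with vehicle and 16 with GSK126, over 125 and 132 kb of its span, at 2.30 and 2.20. Pax2 had 8 and 7 islands at 2.67 and 2.46. Dmrt1, a gonadal factor, had 12 and 11 islands at 1.98 and 1.90, and the gut and spleen factor gene Nkx2-3 lay in 1 island each, at 2.47 (727 ChIP and 494 input reads) and 2.36 (872 and 614). These genes, picked for most vehicle ChIP reads in islands, kept their broad domains with small differences in ratio. Pax2, Dmrt1 and Nkx2-3 lie on chromosome 19 and Pax5 on chromosome 4. On these chromosomes GSK126 islands were 84.3% and 81.3% of vehicle islands, beside 72.5% over all autosomes.

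Of the same factors, 14 had an island in the vehicle list alone and 7 in the GSK126 list alone. Gata4, a heart and gut endoderm factor, had a pair of vehicle islands with 27 ChIP over 6 input reads (ratio 7.56, 3.06 to 22.4) and 29 over 7 (6.96, 2.98 to 18.8), and Gata6 had 1 with 22 over 4 (9.24, 3.14 to 36.9). No GSK126 island overlapped either gene. Both lie on chromosomes 14 and 18, where GSK126 islands were 47.9% and 54.5% of vehicle islands. The 7 with a GSK126 island alone were Foxa2 (392 ChIP and 340 input reads, ratio 1.92), Evx1 (310 and 271, 1.90), En2 (133 and 91, 2.43), Vax1 (82 and 67, 2.04), Pou3f3 (75 and 75, 1.66), Gsx2 (72 and 33, 3.63) and Eomes (57 and 38, 2.50). Gata4, Gata6 and these 7 were named after their values were seen.

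Among the Hox clusters, which set position along the body axis, 8 of 39 genes had a vehicle island and 6 a GSK126 island, 5 in both. Of the 39, 35 were below 1 RPKM, where 31.2% of all genes had a vehicle island and 26.7% a GSK126 island. Hoxb13 lay in a vehicle island of 49.2 kb (942 ChIP and 466 input reads, ratio 3.40, exact interval 3.04 to 3.8) and in a GSK126 island with 529 and 283 reads (3.11). Hoxd3 had 3 islands in each list (2.70 and 2.71), and Hoxd10 had 98 over 46 reads (3.58) with vehicle and 130 over 77 (2.81) with GSK126. Hoxb9 had 2 and 1 islands (2.29 and 2.17), and Hoxc4 had 2 with vehicle (2.89) and none with GSK126. No Hoxa gene had an island in either list. Hoxa10 was the Hox gene with most RNA, at 5.69 RPKM.

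Secreted Wnt antagonists stood at 9 of 13 genes with a vehicle island and 4 with a GSK126 island, all 4 of which also had a vehicle island. Of the 13, 8 were below 1 RPKM, where 31.2% of all genes had a vehicle island and 26.7% a GSK126 island. Over all genes, 2797 of the 3926 with a vehicle island also had a GSK126 island. Wif1 (chr10:121034004-121100642) had 8 vehicle islands with 330 ChIP and 242 input reads over 20.0 kb (2.29), and 6 GSK126 islands with 517 and 449 reads over 28.0 kb (1.92). Its first island, just downstream of the start printed above, had 63 over 26 reads with vehicle (4.07, exact interval 2.54 to 6.70) and 71 over 62 with GSK126 (1.91, 1.34 to 2.72). Frzb, another decoy for Wnt ligands, had 3 and 2 islands at 2.05 and 1.94, and Sfrp5 had 1 in each list at 2.67 and 2.51. Notum, a Wnt-inactivating lipase, had 2 vehicle islands (59 over 50 and 52 over 52 reads) and no GSK126 island. The osteocyte Wnt inhibitor gene Sost had 1 vehicle island (99 over 85 reads, 1.96) and none with GSK126. Wnt ligands and receptors had 11 of 36 genes with a vehicle island and 13 with a GSK126 island, including all 11, with a median log2 quotient of 0.00. Wnt7a had 7 and 3 islands at 2.40 and 2.26, Wnt3a had 4 and 4 at 2.46 and 2.68, Wnt8b had 5 and 2 at 2.23 and 2.22, and the stem cell receptor gene Lgr5 had 10 and 7 at 2.05 in both.

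Few osteoblast genes had islands, and 21 of the 25 were at 1 RPKM or more, where 2.35% of all genes had a vehicle island. Of the 25, 1 had a vehicle island (Enpp1, 4 islands at 2.29, and 1 at 1.81 with GSK126) and 2 a GSK126 island (Enpp1 and Bmp2). Osteocyte genes had 2 of 8 with vehicle, Sost and the phosphate hormone gene Fgf23, and 1 with GSK126 (Fgf23, 2.07 and 2.13). Cartilage genes had 4 of 16 in each list. Acan, the main cartilage proteoglycan, had 8 vehicle islands over 31.5 kb (394 ChIP and 267 input reads, 2.48), and 1 GSK126 island that touched 0.899 kb of the span (77 and 66 reads, 1.94). Col9a1, a cartilage collagen, had 4 in each list (2.52 and 1.98). BMP and TGF-beta genes had 5 and 4 of 29, among them Bmp7 (7 and 3 islands, 2.46 and 2.79), Gdf6 (3 and 1, 2.15 and 1.94), Chrdl2 (2 and 1, 2.96 and 4.13) and Bmp6 (3 and none).

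Genes of other lineages were nearly all below 1 RPKM, where 31.2% of all genes had a vehicle island and 26.7% a GSK126 island. That share depended on span. Above 0 and below 1 RPKM, the vehicle share was 16.3% for spans under 10 kb and 64.2% at 100 kb or more. The lists were not matched for span. Neuronal genes had islands in 10 of 16 with vehicle and 8 with GSK126, and the ratio was lower with GSK126 in all 8 (median log2 quotient -0.25). Over all 2797 genes with islands in both lists, 76.3% were lower, with a median of -0.20. Rbfox3, a neuronal splicing factor, had 24 and 11 islands at 2.44 and 2.43, Gria2, a glutamate receptor subunit, had 5 and 5 at 3.98 and 2.12, Grin1 had 3 and 2 at 2.67 and 2.43, and Gad1 had 6 and 2 at 1.92 and 1.89. Blood cell genes had 5 and 3 of 9, led by the leukocyte phosphatase gene Ptprc, with 14 islands (838 ChIP and 480 input reads, 2.93) and 7 islands (793 and 718 reads, 1.84) over about the same length (54.0 and 54.8 kb). Endothelial genes had 5 and 2 of 8, with Vwf at 10 and 7 islands (2.21 and 1.93). Epithelial genes had 4 and 2 of 9, with the splicing factor gene Esrp1 at 4 and 3 islands (2.58 and 1.89). Muscle genes had 4 and 3 of 12, with Myh3 at 5 and 1 islands (2.77 and 2.83) and Ryr1 at 5 and 1 (2.60 and 5.32). The GSK126 value of Ryr1 rests on 48 ChIP and 15 input reads over 3 kb, where vehicle islands covered 19.8 kb. Adipocyte genes had 4 of 8 in both lists, and of these Cidec gave 2.12 and 1.61 and Lep 2.04 and 1.96, while Adipor2, the 1 with high RNA, gave 1.99 and 2.22. No island of either list lay on any of 18 housekeeping genes or 8 cell cycle inhibitor genes. PRC2 and H3K27 enzyme genes had none of 11 with vehicle and 1 with GSK126 (Phf19).

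A further set of genes with a place in bone formation or in Polycomb action had no island in either list apart from Wif1. For Runx2, the master factor of osteoblasts, the nearest island was 188 kb away with vehicle and 187 kb with GSK126. Sp7, its downstream partner, was 267 and 266 kb from an island, the matrix protein gene Ibsp 269 and 268 kb, and the osteocalcin gene Bglap 123 and 178 kb. Tcf7 was 33.6 and 33.8 kb away, the limb factor gene Tbx2 4.45 and 10.9 kb, Dlx3 18.5 and 12.7 kb, Cdkn2a 241 and 255 kb, and Ezh2 itself 10.4 kb in both. Islands came nearest to Tbx2, Ezh2 and Dlx3.

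RNA in the same system was compared between GSK126 and vehicle over days 3, 6 and 10 with edgeR's quasi-likelihood test and day as a term. Libraries held 97291900 to 111538000 counts, and p-values cover no more than the spread among these 6 libraries, which may be technical. With 1 library per treatment and day, that spread is how far the treatment difference varied between days, not between replicate cultures. In bulk RNA, fewer cells of a type and less RNA per cell cannot be told apart. Of 14344 genes tested, 145 rose (1.01%) and 39 fell (0.272%) at an adjusted p below 0.05. Among 1303 tested genes with a vehicle island, 58 rose (4.45%) and none fell. An unadjusted edgeR p below 0.05 was reached by 377 of the 1303, beside 2714 of all 13884 tested autosomal genes. DESeq2 called many more genes in both directions, 666 higher (4.99%) and 610 lower (4.57%) of 13343 autosomal genes with an adjusted p. Of the 1097 such genes with a vehicle island, it called 190 higher (17.3%) and 30 lower (2.73%). In genes with no island in either list, 76 of 12383 rose (0.614%) and 38 fell (0.307%). Thus 42.3% of the 137 autosomal genes that rose by edgeR had a vehicle island, beside 1303 of all 13884 tested autosomal genes. None of the 38 that fell by edgeR had one. All 38 lay at 1 log2 CPM or more, where only 367 of 10718 tested autosomal genes had a vehicle island.

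Genes with islands had little RNA, which bears on how many could be called in each direction. Their median level was -0.74 log2 CPM, against 4.73 in genes without islands, and the lowest level of any gene that fell was 1.18 log2 CPM. Among tested genes at 1 log2 CPM or more, 36 of 367 with a vehicle island rose (9.81%) and none fell, against 70 and 38 of 10351 without one. Below 1 RPKM, 48 of 1057 tested genes with a vehicle island rose (4.54%), against 25 of 2385 without one (1.05%). Of 905 tested genes with islands in both lists 43 rose (4.75%), of 398 with a vehicle island alone 15 rose (3.77%), and of 198 with a GSK126 island alone 3 rose (1.52%). Of 261 tested genes that started in a vehicle island, 16 rose (6.13%). Of 190 with most of the span in vehicle islands, 3 rose (1.58%), beside 0.987% of all tested autosomal genes. The 58 risen genes with a vehicle island had a median span of 95.7 kb. The 58 genes had log2 fold changes from 1.05 to 8.80, median 2.53, and all were higher with GSK126 on each of the 3 days. Among all genes with a vehicle island, the test called 2 higher without day 10, 10 without day 6 and 0 without the day term. Over all autosomal genes these refits called 4, 18 and 0 higher. Without day 3 it called 57 higher and 5 lower with a vehicle island, of 195 and 99 over all autosomal genes. The count thus rests on days 6 and 10 and on the day term, as did the calls over all autosomal genes.

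**Figure D5:**
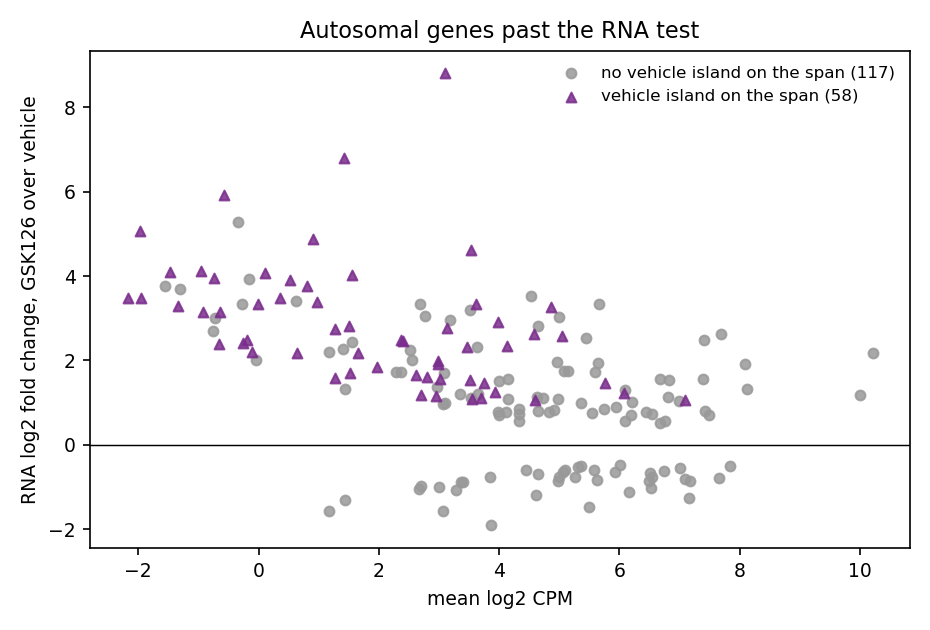
Log2 fold change of RNA with GSK126 against vehicle (vertical axis) against mean level in log2 CPM (horizontal axis) for the 175 autosomal genes with an edgeR adjusted p below 0.05. The 58 genes with a vehicle island are all above 0, while the 117 without one include the 38 that fell. Of the 13884 tested autosomal genes, 1303 had a vehicle island.

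Ostn, which encodes the secreted bone and muscle peptide osteocrin, had the largest rise among genes with islands. Its RPKM was 0, 0.0723 and 0 with vehicle on days 3, 6 and 10, and 0.114, 25.7 and 5.85 with GSK126, so the groups did not overlap. The edgeR log2 fold change was 8.80 (SE 0.40, adjusted p = 0.00571), which depends on the prior count with vehicle so near 0. It had a pair of vehicle islands (52 ChIP and 33 input reads, ratio 2.65) and no GSK126 island. Gpr141, an orphan receptor, went from 0, 0.00890 and 0.0240 RPKM to 0.0210, 1.48 and 2.09 (log2 fold change 6.81, SE 0.31, edgeR adjusted p = 0.00571), with 1 vehicle island (34 over 19 reads, 3.01) and no GSK126 island.

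The amino acid transporter gene Slc36a2 was at 0.00583, 0.0880 and 0.890 RPKM with vehicle and 0.119, 2.86 and 18.2 with GSK126. It rose by 4.62 on the log2 scale (SE 0.18, edgeR adjusted p = 0.00571), and its islands gave 115 over 88 reads (2.20) with vehicle and 185 over 118 (2.61) with GSK126. Iqgap2, a scaffold protein, went from 0.0147, 0.0371 and 0.0944 RPKM to 0.320, 1.25 and 0.665 (4.03, SE 0.47, edgeR adjusted p = 0.0316), with ratios of 2.41 and 2.87. The Rac activator gene Prex1 went from 0.0304, 0.157 and 0.518 RPKM to 0.161, 1.90 and 5.97 (3.34, SE 0.25, edgeR adjusted p = 0.0151), with 7 islands at 2.05 and 4 islands at 2.42. The sodium-calcium exchanger gene Slc8a3 went from 0.162, 0.666 and 1.42 RPKM to 0.888, 9.44 and 14.1 (3.27, SE 0.27, edgeR adjusted p = 0.0197), with ratios of 2.86 and 2.24. Leaving out 1 day ended several of these calls. Without day 10, the edgeR adjusted p was 0.0639 for Slc36a2, 0.0538 for Iqgap2, 0.0964 for Prex1 and 0.101 for Slc8a3. Iqgap2 also missed the threshold without day 3 (edgeR adjusted p = 0.0582) or day 6 (0.105), and Prex1 without day 6 (0.0562), while Ostn passed without each day. Prex1, Slc36a2 and Iqgap2 rose with a ratio over the span that was not lower in the GSK126 list. For Iqgap2, the GSK126 island shared no base with either vehicle island, so its ratios come from different places. Over the 43 risen genes with islands in both lists, the ratio was lower with GSK126 in 28, beside 76.3% of all 2797 genes with islands in both.

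Wif1 was at 0.556, 2.13 and 3.37 RPKM with vehicle and 2.63, 15.1 and 12.8 with GSK126, and rose by 2.35 on the log2 scale (SE 0.18, edgeR adjusted p = 0.0184). Frzb rose from 0, 0.00523 and 0.0113 RPKM to 0.0494, 0.623 and 0.373 (edgeR adjusted p = 0.0212). Enpp1, with its start in a vehicle island alone, rose from 0.0439, 0.0995 and 0.0973 RPKM to 0.237, 0.584 and 0.288 (log2 fold change 2.19, SE 0.30, edgeR adjusted p = 0.0434). Tspan12 was at 0.00569, 0.0245 and 0.00663 RPKM with vehicle and 0.139, 0.356 and 0.124 with GSK126, and also rose, with 7 islands at 2.51 and 5 at 1.79. All 4 were higher with GSK126 on each day.

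Genes with no island on the span rose too. In edgeR, Bglap rose by 3.34 (SE 0.44, adjusted p = 0.042), Ibsp by 2.18 (SE 0.22, adjusted p = 0.0251), Tcf7 by 1.56 (SE 0.07, adjusted p = 0.00571), Tbx2 by 1.56 (SE 0.09, adjusted p = 0.00875) and Dlx3 by 1.19 (SE 0.10, adjusted p = 0.0197) on the log2 scale. Runx2 (0.45, edgeR adjusted p = 0.0934), Sp7 (0.97, 0.0504) and Ezh2 (0.12, 0.738) did not pass the test. Cdkn2a was listed at 0 RPKM in all vehicle and all GSK126 libraries. None of these 9 genes had an island on its span in either list.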

How the data were processed

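Chromatin of MC3T3 cells was profiled for H3K27me3 with matched inputs, and RNA was sequenced from the same system. Reads were handled with CASAVA 1.9, BWA 0.5.9, SICER 1.1, TopHat2 2.0.6 and HTSeq 0.5.3p9 on mm10, per the submitters' processing notes. For SICER, the sources used here give no window, gap or threshold. All island starts were multiples of 200 bases. The authors deposited, for each island, whole counts of ChIP and input reads, a p-value, its adjusted form, and a ratio (fold) of ChIP over input. They also deposited a count table of reads per gene and library with RPKM values beside it. Every count in that table was even.

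Islands of chromosomes 1 to 19 were summarised in Python 3.11.15. Exact (Clopper-Pearson) intervals at 95% came from scipy 1.17.1, treat reads as independent molecules and cover counting error only. Gene spans were those of the count table, without 47 rows of small RNA genes (coding length under 300 bases) joined over 50 kb or more. RefSeq starts matched 66.6% of the 22242 autosomal genes by name. RNA counts were fitted in R 4.3.3 with edgeR 4.0.16 (TMM, filterByExpr, quasi-likelihood F test, day and treatment as terms, Benjamini-Hochberg over all genes tested) and tested on simulated data. The biological coefficient of variation reported by edgeR was 14.8%. It comes from the variation left after the day and treatment terms, with 1 library per treatment and day, and not from replicates. Alternatives covered DESeq2 1.42.0, scaling, filters, thresholds, overlap and omitted days or chromosomes.

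Named islands were the 5 longest and, of those of 2 kb or more with at least 50 ChIP reads, the 5 of highest ratio per list. They also included the 6 lowest and 6 highest quotients among 1-to-1 pairs with at least 50 ChIP reads in both, and the 4 groups with most merging each way. A single one of these groups is not reported here. Named genes were up to 4 per gene list with most vehicle ChIP reads in islands, 10 bone and Polycomb genes, and the 6 largest RNA rises among genes with a vehicle island at 1 log2 CPM or more. No fall met that rule. The members and lists were chosen with earlier results of these data known. Gata4, Gata6, the factors with a GSK126 island alone, Hoxd10, Hoxa10, Bmp2, Phf19, Tspan12, the RNA of Frzb and Enpp1 and the printed windows were chosen after their values were seen.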

Additional observations from a re-analysis of the deposited data

Results flagged for a closer look

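Islands on chromosome X were left out of every comparison above, and both lists held some. The vehicle list had 107 islands there (4524 ChIP and 2197 input reads, ratio 3.46, exact 95% interval 3.29 to 3.64) and the GSK126 list had 27 (1849 and 1538 reads, 2.0, 1.87 to 2.14). These are counts of signal outside the main measurement, with 1 ChIP library a side and no test. Islands on chromosome Y had ratios of 0.78 and 0.88, and those on the mitochondrial genome 0.23 and 0.10.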

How the results depend on the processing

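Over 62 alternative values of the main results, 24 stayed close to the value given and 38 moved, in most cases by more than the narrow counting interval. GSK126 islands as a share of vehicle islands went from 72.5% to 84.2% at an adjusted p of 1e-10 or lower, 49.8% at a ratio of 2 or more and 69.9% without chromosomes 6 and 19, and the median length from 165% of vehicle to 142% and 153% at the first and second of these. The GSK126 ratio, 83.2% of vehicle, was 82.4% by medians, 81.2% at the stricter p, 83.4% without these chromosomes and 86.5% in islands with 20 or more input reads. ChIP density, 106% of vehicle, was 107% without these chromosomes and 90.8% less scaled input, a change of side that follows from the higher input with GSK126. Shared vehicle islands went from 60.5% to 52.1% and shared GSK126 islands from 68.9% to 48.6% when most of the island had to overlap, to 52.3% and 57.0% at the stricter p, and to 56.6% and 67.6% without chromosomes 6 and 19. Merging went from 28.5% to 17.2% of GSK126 islands and from 11% to 7.58% of vehicle islands once islands within 2 kb were joined, and to 18.7% of GSK126 islands at the stricter p. In 1-to-1 pairs, 70.4% were lower at 80% overlap. Gene overlap was 31.5% and 29.0% with most of the island on genes, and 43.6% and 42.8% with the joined small RNA spans kept. For genes below 1 RPKM, 31.2% with vehicle became 18.4% near starts and 9.64% with most of the span covered, and 26.7% with GSK126 became 15.4% and 9.54%. At 1 RPKM or more, 2.35% became 0.144% with vehicle for most of the span, and 2.45% became 1.45% and 0.201% with GSK126. Genes with a vehicle island called higher numbered 58 by edgeR, 190 by DESeq2 (of 666 over all autosomal genes), 0 with no day term, and 2 to 57 with a day left out, and those called lower 0 by edgeR, 30 by DESeq2 (of 610) and 0 to 5 with a day left out. The cause was not tested. The 6 named RNA rises kept their direction in all 45 refits, and 13 no longer passed. Ostn and Gpr141 were not tested with halved counts, nor Gpr141 without day 10. The pairs at 80% overlap, those with 50 ChIP reads and the kept small RNA spans were chosen after seeing the data. The RNA values already pair libraries by day through the day term. By replicate number, no paired analysis was possible because each group held 1 library and so carried 1 number.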
